A study of Drosophila melanogaster with 9 samples.

Results

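Expression of mre11, MFS1 and CREG was followed across whole Drosophila melanogaster embryos of 3 genotypes. The 3 genes are rows of a deposited table of 10221 genes and were picked by name from the largest falls in Quad embryos against the control, so their values in that comparison are given as a description and were not tested. Collections of more than 200 embryos covered stage 16 to the air-filled trachea stage, and there were 9 libraries, 3 biological replicates of each genotype. Insc-Gal4, a driver named for inscuteable and used to express UAS transgenes in neuroblasts (fly neural stem cells), was present in every group. Control embryos had it over OregonR. Quad embryos combined it with UAS-ase, UAS-Kr, UAS-wor and UAS-SoxN, and Hexa embryos with the same transgenes plus UAS-hb and UAS-nub.

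Each genotype carries its own experiment label (1 for control, 2 for Quad, 3 for Hexa), although the series text pairs each misexpression with a control, so genotype and experiment cannot be told apart. No group carried transgenes without the driver, and stock background cannot be told apart from misexpression either. For a pair of controls the headers of the linear RPKM columns read da, a different driver, and the linear columns were left aside. Deposited counts summed to between 8555639 and 11687961 reads a library. Of the misexpressed genes, wor (log2 2.32 in Quad and 2.58 in Hexa) and ase (log2 1.01 and 1.27) were higher in both misexpressions, with limma adjusted p of at most 0.00392. SoxN was called higher in Quad (lost without control 1, control 3 or a single Quad library, adjusted p up to 0.0841), and hb (log2 3.02) and nub (log2 0.56, lost without Hexa 1, adjusted p = 0.0531) were called higher in Hexa. Quad carried no UAS-hb, and its libraries had 6.99, 2.83 and 1.81 RPKM of hb against at most 1.72 in the controls. Kr was called lower in Hexa (log2 -0.56, adjusted p = 0.0213), a call that ended when Hexa 1 (adjusted p = 0.0645) or Hexa 2 was left out. Although their transgenes were present, Kr was not called in Quad (log2 -0.25, limma adjusted p = 0.384) and SoxN was not called in Hexa (log2 0.24, adjusted p = 0.218). The deposited counts did not show the rises of hb and nub, with edgeR differences in Hexa of log2 -0.26 (adjusted p = 0.479) and log2 -1.15 (adjusted p = 0.0828). For both genes the count column held few reads for their RPKM. In Hexa 1 hb had 78 reads at 18.1 RPKM and nub 148 at 31.6 RPKM, against 698 at 5.23 RPKM for mre11. These counts therefore cannot decide whether hb and nub rose.

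The genes belong to different pathways. The product of mre11 is a nuclease that, with the products of rad50 and nbs, forms the MRN complex, which binds broken DNA ends, trims them and activates the damage checkpoint kinase ATM (tefu in the fly). MFS1 is named as a member of the major facilitator superfamily, membrane carriers that move small solutes such as sugars, organic anions or phosphate. CREG is named for a mammalian glycoprotein that is secreted and found in lysosomes. In the BDGP 6.54 annotation mre11 lies on chromosome arm 2L and has 1 transcript of 2013 bases, MFS1 lies on 2R with 1 transcript of 1699 bases, and CREG lies on 3R with 4 transcripts of 823 to 967 bases.

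Levels are the authors' RPKM, reads scaled to transcript length and library size. The level of mre11 was 8.34, 12.6 and 8.96 RPKM in controls 1, 2 and 3. It was 3.69, 4.09 and 3.34 RPKM in the Quad libraries and 5.23, 4.63 and 4.16 RPKM in the Hexa libraries. All 6 misexpression libraries lay below the lowest control, and the lowest Hexa library lay just above the highest Quad library.

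MFS1 stood at 8.67, 9.04 and 10.02 RPKM in the controls. Its Quad libraries had 3.32, 3.77 and 4.24 RPKM and its Hexa libraries 8.10, 7.84 and 6.22 RPKM. The groups did not overlap: Quad was lowest, the controls were highest and Hexa lay between them, nearer to the control.

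CREG had 29.1, 25.2 and 31.9 RPKM in the controls. It had 12.9, 14.7 and 11.9 RPKM in Quad and 36.3, 30.3 and 25.0 RPKM in Hexa. The Hexa libraries spread on both sides of the controls, and every Quad library lay below all other libraries.

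**Figure D1:**
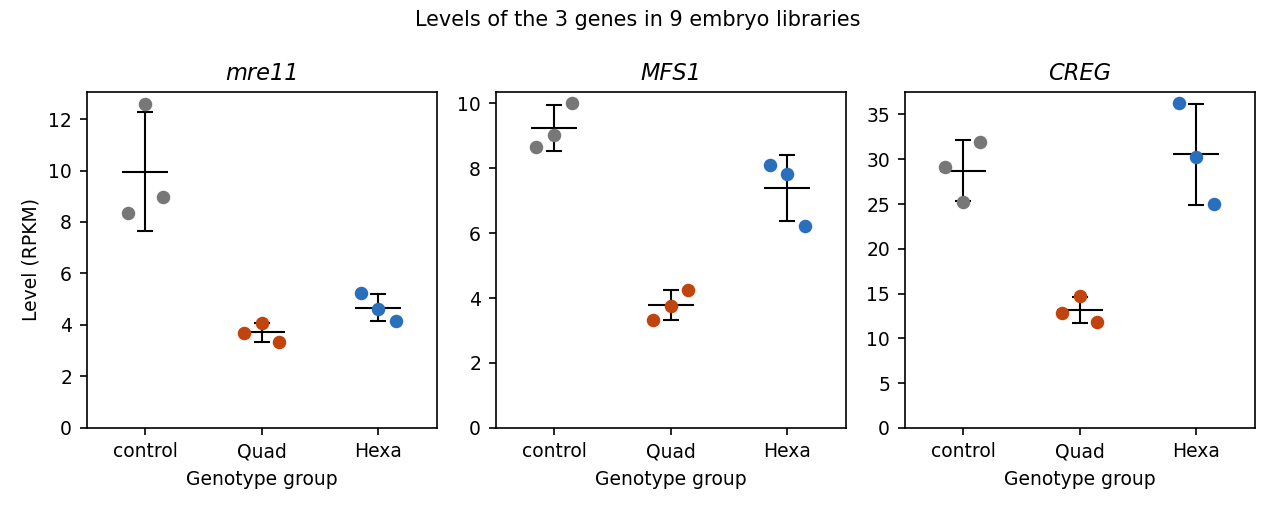
RPKM (vertical axes, from 0) of mre11, MFS1 and CREG in each library by genotype group, with points for libraries and bars for mean ± SD over 3 libraries. Hexa stands near Quad for mre11 (4.67 against 3.71 RPKM) and near the control for CREG (30.5 against 28.7 RPKM), with MFS1 between (7.38 RPKM).

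In the contrast that chose them, Quad against control, mean levels fell to 37.2% of the control for mre11, 40.9% for MFS1 and 45.7% for CREG. As differences of log2(RPKM + 0.1), a scale that understates changes of low genes, these were -1.38 ± 0.175 (SE), -1.27 ± 0.146 and -1.12 ± 0.159. They ranked 77th, 97th and 136th by size of fall among 6190 tested genes, the genes at or above 0.5 RPKM in 3 or more libraries. The choice also asked for a limma adjusted p under 0.05, no overlap of libraries, at least 5 RPKM in the control and a symbol other than a CG or CR number, which 30 genes met. Of these mre11, MFS1 and CREG came at places 4, 5 and 8, with TwdlX (log2 -1.51) just ahead of mre11 and FucTC (log2 -1.11) just after CREG. In the ranking of all tested genes LysB (log2 -1.42) and CG14630 (log2 -1.40) stood just before mre11, and CG14907 and CG30031 (log2 -1.12 each) just after CREG. Of all tested genes 2.52% were called lower in Quad and in 15% the Quad libraries lay wholly below the controls, from which nothing is read about genes so chosen.

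Hexa embryos did the same for mre11, but a fall was not called there for MFS1 or CREG. The level of mre11 was 9.96 ± 2.30 RPKM in the control and 4.67 ± 0.54 in Hexa (SD, n = 3), a difference of log2 -1.06 ± 0.175 (SE; limma adjusted p = 0.00324 over 6190 genes). Genes called lower in Hexa made up 13.1% of those tested, and 19.1% were called higher. This comparison shares its control libraries with the contrast on which mre11 was chosen, so it is not independent of that choice.

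The difference of MFS1 between Hexa and control was log2 -0.33 (95% interval -0.65 to 0.00014, limma adjusted p = 0.0993), at 7.38 ± 1.02 against 9.24 ± 0.696 RPKM. All 3 Hexa libraries were below all 3 controls, as for 23.7% of tested genes. CREG had 30.5 ± 5.63 RPKM in Hexa and 28.7 ± 3.39 in the control, a difference of log2 0.078 (95% interval -0.28 to 0.43, limma adjusted p = 0.699). That interval leaves out a fall of the size seen in Quad.

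Hexa was then set against Quad, the direct test of whether both misexpressions differed from the control by the same amount; it shares the Quad libraries with the choice of genes. MFS1 was higher in Hexa by log2 0.95 ± 0.146 (SE; limma adjusted p = 0.00398) and CREG by log2 1.20 ± 0.159 (limma adjusted p = 0.00206). In both genes each of the 3 Hexa libraries exceeded each of the 3 Quad libraries. For mre11 the difference was log2 0.33 (95% interval -0.068 to 0.72, limma adjusted p = 0.189), which does not show equal levels. Of all tested genes 13.5% were called higher in Hexa than in Quad, 835 against 596 lower (9.63%), and with TMM factors on RPKM these were 730 and 841. In 28.6% of tested genes the Hexa libraries lay wholly above those of Quad.

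**Figure D2:**
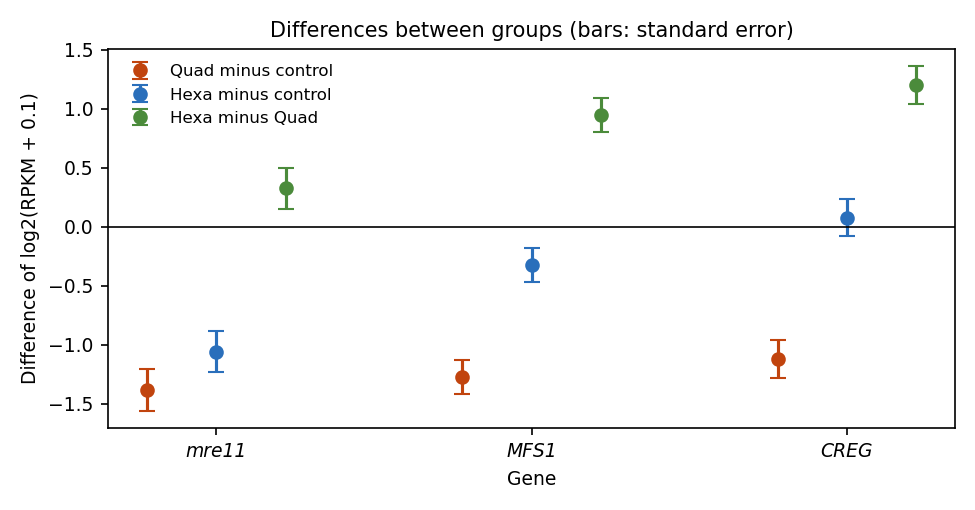
Difference of log2(RPKM + 0.1) (vertical axis) for Quad minus control, Hexa minus control and Hexa minus Quad, with bars for the standard error of the limma fit. Quad minus control lies between -1.38 and -1.12 for the 3 genes, while Hexa minus control runs from -1.06 for mre11 to 0.078 for CREG.

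In the deposited read counts, too, mre11 and MFS1 were lower in Quad and Hexa than in the control, first given without scaling to library size. The controls had 1545, 2358 and 1612 reads of mre11, against 704, 694 and 594 for Quad and 698, 593 and 741 for Hexa. Reads of MFS1 numbered 1356, 1429 and 1522 (control), 535, 540 and 637 (Quad) and 911, 848 and 935 (Hexa). All misexpression libraries again lay below all controls. The counting error of 1 library was at most 4.11% for mre11 and 4.32% for MFS1. Scaled to the summed counts, mre11 had 159 ± 37.7 CPM (SD, n = 3) in the control, 61.6 ± 5.65 in Quad and 70.6 ± 9.48 in Hexa. MFS1 had 124 ± 9.24 CPM in the control, 53.1 ± 6.77 in Quad and 94.0 ± 12.2 in Hexa. On this scale the Quad (56.1 to 67.4 CPM) and Hexa libraries (65.1 to 81.6 CPM) of mre11 overlapped, which they did not in RPKM. On counts, edgeR's quasi-likelihood test gave a log2 difference of -1.14 for mre11 in Hexa against control (adjusted p = 0.00106) and 0.87 for MFS1 in Hexa against Quad (adjusted p = 0.00947). For MFS1 in Hexa against control the edgeR difference was log2 -0.39 and was not called (adjusted p = 0.110).

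For these 2 genes of 1 transcript the count and RPKM columns describe the same reads: the constant that links them was the same for both genes in each library (ratios between 0.999997 and 1.0). The count column held 0 reads of CREG in all 9 libraries, so CREG rests on RPKM alone. With the same constants and its longest transcript, the CREG RPKM correspond to between 1013 and 2760 reads a library. Of all tested genes 275 had 0 counts in every library, so the count column leaves out genes that the RPKM column holds. Others had few reads for their RPKM, such as MFS9 (87 reads at 18.4 RPKM) and Rrp1 (15 reads at 7.60 RPKM) in Hexa 1. For such genes the count tests cannot check the RPKM result.

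Control 2 had the highest mre11 level of all libraries, and other DNA repair genes were high in it too, a pattern noted after the values were seen. In that library nbs had 17.9 RPKM, against 3.93 and 4.02 in controls 1 and 3 and 3.83 to 4.96 in the 6 other libraries. Its partner rad50 had 6.81 RPKM in control 2, against 1.78 and 1.74 in the other controls. The subunits of the end-binding Ku dimer, Irbp (9.24 against 2.34 and 2.31 RPKM) and Ku80 (7.51 against 2.43 and 2.53 RPKM), and RpA-70, which coats single-stranded DNA (41.2 against 12.1 and 12.8 RPKM), stood likewise.

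Of 24 tested genes of the list for the MRN complex and double-strand break repair, 12 had their highest level of all 9 libraries in control 2, and 5 were at least 2-fold above the mean of the other controls on the log2 scale. Of 20 tested genes of other repair pathways 11 were highest in control 2 and 3 were at least 2-fold up, lig3 (log2 1.76), mus205 (log2 1.37) and pic (log2 1.14). Over all tested genes control 2 was the highest library in 24.2%, and 6.77% were at least 2-fold up in it. The excess of mre11 itself was smaller, with log2 0.54 above the mean of the other controls. MFS1 was in the middle of the controls in that library and CREG was lowest.

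**Figure D3:**
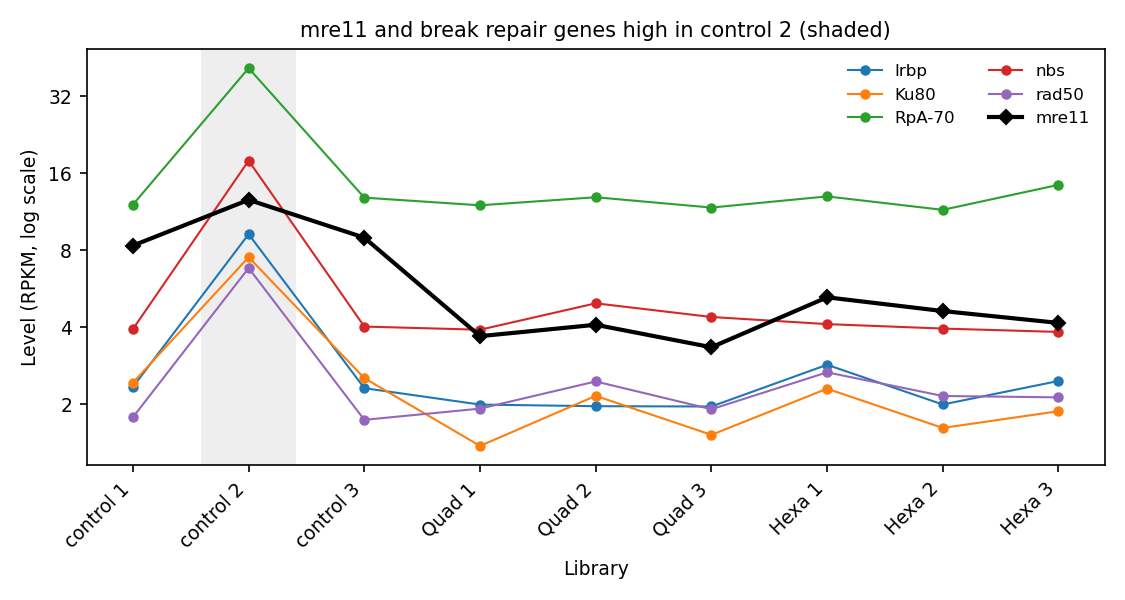
RPKM (vertical axis, log scale) in each library of mre11 and the 5 break repair genes at least 2-fold higher in control 2 (shaded) than in the other controls, picked after their values were seen. The 5 genes are lower in each of the other 8 libraries than in control 2, and mre11 is higher in all 3 controls (8.34 to 12.6 RPKM) than in Quad and Hexa (3.34 to 5.23 RPKM).

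Without control 2, mre11 was lower in Hexa by log2 -0.88 (limma adjusted p = 0.00399) and in Quad by log2 -1.20. Its partners were not called: rad50 differed by log2 0.23 in Quad (95% interval -0.17 to 0.64, limma adjusted p = 0.476) and 0.37 in Hexa (adjusted p = 0.136), and nbs by log2 0.14 in Quad (95% interval -0.17 to 0.45, adjusted p = 0.571) and -0.0049 in Hexa (adjusted p = 0.975). With all controls, the differences of nbs were log2 -0.57 in Quad (adjusted p = 0.580) and -0.72 in Hexa (adjusted p = 0.261), and those of rad50 were -0.40 (adjusted p = 0.686) and -0.26 (adjusted p = 0.647). Leaving out control 2 was chosen after these levels were seen.

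Other genes of break repair were given by a list of 45 names, of which 27 had a row and 24 were tested; mre11 is not counted in it. In Quad none was called in either direction by limma (background 4.68%, of which 2.16% higher), 4 had an unadjusted p under 0.05, edgeR called 0 of 23 and DESeq2 1 of 25. In Hexa limma called 1 higher and 2 lower, beside 19.1% and 13.1% of all tested genes, whereas edgeR called 0 higher and 3 lower of 23 and DESeq2 0 higher and 4 lower of 23. Over all genes edgeR called 118 higher and 113 lower in Quad, and 572 and 461 in Hexa. DESeq2 called 178 and 200 in Quad, and 741 and 672 in Hexa. The shares of tested genes called by edgeR or DESeq2, or at an unadjusted p under 0.05, were not worked out. For the lists here and below, such counts therefore stand without a background. The list median difference was log2 -0.15 in Quad and -0.31 in Hexa, beside 0.022 and 0.032 over all tested genes, and without control 2 it was 0.11 and 0.024. The checkpoint kinase gene grp rose in Hexa to 17.1 from 12.4 RPKM (log2 0.46, limma adjusted p = 0.0111). Its deposited counts did not show this rise, at 24.6 CPM in the control and 19.8 in Hexa (edgeR log2 -0.29, adjusted p = 0.450). In Hexa 1 the count column held 224 reads of grp at 17.0 RPKM, few beside 698 at 5.23 RPKM for mre11, so it cannot decide this. RnrL, a ribonucleotide reductase subunit, fell to 9.37 from 14.7 RPKM (log2 -0.64, adjusted p = 0.0195), and WRNexo fell to 9.64 from 13.3 RPKM (log2 -0.46, adjusted p = 0.0281). Both falls were lost without Hexa 1 or Hexa 2, and WRNexo also without control 1 or control 3 (adjusted p up to 0.061 and 0.0889).

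Among 20 tested genes of other repair pathways, 1 rose and 1 fell in Quad, beside 2.16% and 2.52% of all tested genes. In Hexa 2 rose and 2 fell, beside 19.1% and 13.1% of all tested genes (32.3% in either direction). Both calls in Quad were photolyases, light-driven repair enzymes, and both were called in Hexa as well. The level of phr was 2.36 RPKM in the control, 7.31 in Quad and 7.69 in Hexa (log2 1.59 and 1.67, limma adjusted p = 6.72e-04 and 2.56e-04). That of phr6-4 was 1.13 RPKM in the control, 0.184 in Quad and 0.227 in Hexa. It passed the filter on low values through the controls alone, so a difference was bound to be found. Its calls, included in the counts above, carry no weight. In Hexa the endonuclease gene Rrp1 also rose (log2 0.97, adjusted p = 0.00559; edgeR adjusted p = 0.454) and Parp fell (log2 -0.65, adjusted p = 0.0204), and the call of Parp was lost when control 1 was left out (adjusted p = 0.0617).

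Other carriers of the major facilitator superfamily were given by 61 names, of which 21 were tested, MFS1 left out. In Quad limma called none, beside 4.68% of all tested genes, and 4 had an unadjusted p under 0.05. There edgeR called 0 of 21 and DESeq2 0 of 23. The median difference of these carriers was log2 -0.059 in Quad and -0.22 in Hexa. In Hexa limma called 5 higher and 4 lower, beside 19.1% and 13.1% of all tested genes, edgeR 2 and 2 of 21 and DESeq2 3 and 3 of 21. Of the 9 limma calls, 4 held when each library was left out in turn, and these are the genes named next. MFS9 rose to 17.3 from 6.16 RPKM (log2 1.48, limma adjusted p = 2.56e-04; edgeR adjusted p = 0.103), SLC22A to 21.7 from 11.7 RPKM (log2 0.88, adjusted p = 0.00143) and the phosphate carrier gene NaPi-T to 9.79 from 3.52 RPKM (log2 1.47, adjusted p = 0.00218). A fall was called for dmGlut, at 34.0 RPKM in Hexa and 53.3 RPKM in the control (log2 -0.65, adjusted p = 0.00397).

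Genes of lysosomal enzymes, membrane proteins and transport were given by 59 names, of which 36 were tested. In Quad limma called 3 lower and none higher, beside 2.52% and 2.16% of all tested genes, with a list median of log2 -0.059. These were the thiol reductase gene GILT3 (13.8 against 29.4 RPKM, log2 -1.06, limma adjusted p = 0.0156), the lysosomal mannosidase gene LManIV (log2 -0.99, adjusted p = 0.0103) and cln3 (log2 -0.70, adjusted p = 0.0141), each lost without at least 1 control and 1 Quad library (adjusted p up to 0.0685, 0.0537 and 0.057). In Quad edgeR called GILT3 and LManIV (adjusted p = 0.0180 and 0.00725) but not cln3 (adjusted p = 0.702). Over the controls cln3 had 95 reads at a mean of 15.7 RPKM, few for its level, so its counts cannot decide this. GILT3 was higher in Hexa than in Quad, as CREG was (log2 0.68, limma adjusted p = 0.0374). Like CREG, GILT3 was among the largest falls in these Quad libraries, which favours such a difference, so nothing is read from the likeness. LManIV and cln3 were lower in Hexa than in the control as well (log2 -0.91 and -0.63, adjusted p = 0.00535 and 0.00833), and edgeR did not call cln3 there (adjusted p = 0.119). In Hexa limma called 8 higher and 10 lower, beside 19.1% and 13.1% of all tested genes, at a median of log2 -0.30. Of these 18 calls 9 held when each library was left out in turn (3 higher, 6 lower), and edgeR called 3 higher and 5 lower of 30, DESeq2 6 and 8 of 30. Among the 9 limma calls that held, LManV (log2 -0.72, adjusted p = 0.00394) and the sterol transport gene Npc1b (log2 -0.94, adjusted p = 0.0049) fell. The thioesterase gene Ppt2 rose (log2 0.63, adjusted p = 0.00724). In edgeR Npc1b and Ppt2 were called (adjusted p = 0.00187 and 0.0267), while LManV was not (adjusted p = 0.548). Over the controls LManV had 49 reads at a mean of 54.0 RPKM, few for its level, so its counts cannot decide this.

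Of 8 tested subunits of the V-ATPase, the proton pump that acidifies lysosomes, limma called none in Quad, beside 4.68% of all tested genes. An unadjusted p under 0.05 was found for 1, and edgeR called 0 of 10 and DESeq2 0 of 11 there. In Hexa limma called 4 higher and 1 lower, beside 19.1% and 13.1% of all tested genes, at a median of log2 0.42, whereas edgeR called 1 higher and 0 lower of 10 and DESeq2 2 higher and 0 lower of 10. Vha13 rose to 1004 from 664 RPKM (log2 0.59, limma adjusted p = 0.0208), Vha14-1 to 406 from 267 RPKM (log2 0.59, adjusted p = 0.0302) and VhaPPA1-1 to 373 from 281 RPKM (log2 0.41, adjusted p = 0.0258), while Vha100-5 fell to 36.3 from 58.5 RPKM (log2 -0.70, adjusted p = 0.0168). The 3 risen calls named were lost without control 1 or Hexa 1 (adjusted p up to 0.0763), Vha14-1 also without control 2 or Hexa 2, and without control 2 a total of 2 subunits rose and 1 fell. In edgeR Vha13, Vha14-1, VhaPPA1-1 and Vha100-5 were not called (adjusted p = 0.603, 0.0633, 0.518 and 0.433). In Hexa 1 the count column held 903 reads of Vha13 at 957 RPKM and 2051 of VhaPPA1-1 at 367 RPKM. It held 6 of Vha100-5 at 38.6 RPKM, against 698 at 5.23 RPKM for mre11. These are few for their levels, so the counts of Vha13, VhaPPA1-1 and Vha100-5 cannot decide whether they changed.

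**Figure D4:**
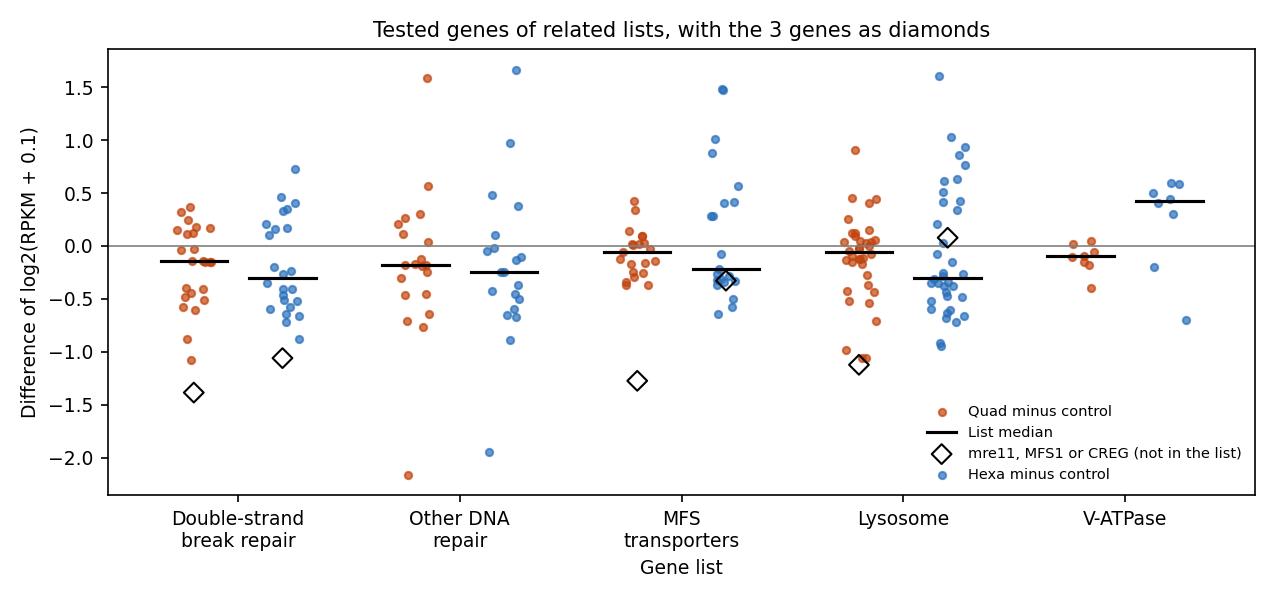
Difference of log2(RPKM + 0.1) from the control (vertical axis) in Quad and Hexa for every tested gene of 5 lists, with black lines for list medians and diamonds for mre11, MFS1 and CREG beside the list of their pathway. In Quad the diamonds lie between -1.38 and -1.12, where the choice of genes put them, and list medians lie between -0.18 and -0.059. The distance between them follows from that choice and is not a result.

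Genes next to the members on the chromosome were examined as well. Of the 3 nearest genes with a row on each side of each member, 18 in all, 11 were tested. In Quad 1 of these was called lower and none higher, beside 2.52% and 2.16% of all tested genes. In Hexa 1 was called higher and 4 lower, beside 19.1% and 13.1% of all tested genes. Beside mre11, Ppt2 had 7.53 RPKM in the control, 8.05 in Quad and 11.8 in Hexa, and CG33695 had 7.58, 8.86 and 9.19 RPKM. Osi21 overlaps mre11 on the opposite strand by 9 exonic bases, 0.447% of the exonic length of mre11, and had at most 0.0887 RPKM in any library.

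Around MFS1, the next gene on the same strand, CG30265, had 3.69 RPKM in the control, 2.37 in Quad and 3.06 in Hexa (log2 -0.63 in Quad, limma adjusted p = 0.0856). The following genes CG12490 and CG9825 fell in Hexa (log2 -1.09 and -0.72, adjusted p = 0.00662 and 0.0157) and were not called in Quad (adjusted p = 0.434 and 0.200). Whether these neighbours share sequence with MFS1, and so reads, was not examined. Around CREG, CG42798 fell in both misexpressions, at 2.19 RPKM in the control, 0.956 in Quad and 0.53 in Hexa. Its differences were log2 -1.12 (limma adjusted p = 0.0156) and log2 -1.89 (adjusted p = 4.06e-04). Leaving out control 1, control 3 or a single Quad library ended the Quad call (adjusted p up to 0.074). The fall of lute in Hexa (33.0 against 50.1 RPKM, log2 -0.65) lay at the threshold and was lost without most single libraries (adjusted p up to 0.113).

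**Figure D5:**
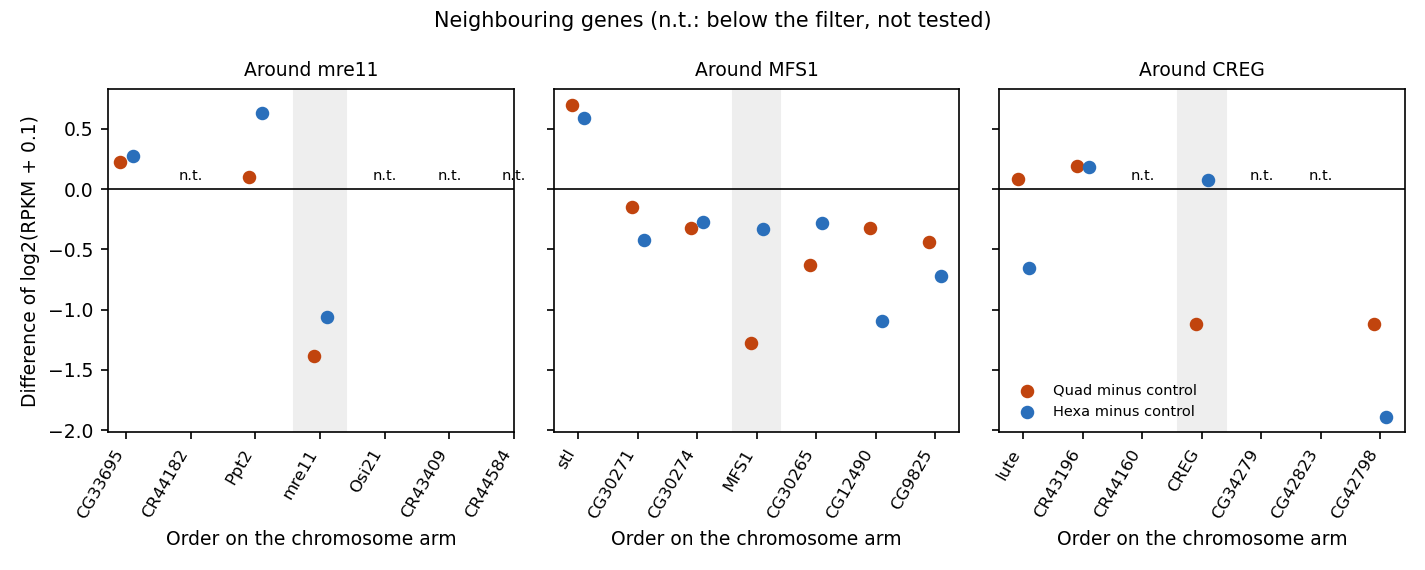
Difference of log2(RPKM + 0.1) from the control (vertical axis) in Quad and Hexa for each member (shaded) and the 3 nearest genes with a row on either side, in their order on the chromosome arm and not to scale of distance. Next to mre11 (-1.38 and -1.06) the neighbour Ppt2 stands at 0.098 and 0.63.

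Over the 9 libraries MFS1 and CREG were most alike among the 3 genes (Pearson r = 0.92 on the log2 scale), with r = 0.79 for mre11 and MFS1 and r = 0.60 for mre11 and CREG. These correlations include the group differences that chose the genes. Of all tested genes, the 3 most like mre11 were CHKov1 (r = 0.97), CG17698 (r = 0.97) and the odorant receptor gene Or19b (r = 0.96). Or19b had 3.79 to 4.83 RPKM in the controls and at most 0.117 RPKM in the 6 other libraries. The 3 most like MFS1 were CG18065, the kynurenine monooxygenase gene cn and CG17027, each with r = 0.97, and cn had 2.68 RPKM in the control, 1.25 in Quad and 2.09 in Hexa. Those most like CREG were CG31313, CG13430 and CG4586 (r = 0.96 each), of which CG4586 had 9.33, 5.06 and 9.58 RPKM in the 3 groups.

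In whole embryos fewer cells of a type and less RNA per cell cannot be told apart. The summed level of 7 midgut markers was lowest in Quad, as MFS1 and CREG were: it was 191 to 296 RPKM in the controls, 118 to 168 in Quad and 272 to 429 in Hexa. Of the 7, 2 were called lower in Quad, beside 2.52% of all tested genes, and none was at 0 in all libraries. One of these 2, thetaTry (7.75 RPKM in the control, 2.08 in Quad, log2 -1.80), was among the largest falls in Quad. The midgut sum was not repeated without it. The mean of 14 heat shock genes relative to the control mean was log2 0.93, 2.45 and 2.79 in Hexa 1, 2 and 3, 0.81, -0.90 and -0.27 in Quad 1, 2 and 3, and -0.68 to 0.43 in the controls. Hexa 2 and Hexa 3 stood highest, and Hexa 1 was close to Quad 1. The 3 genes were each highest in Hexa 1 and lowest in Hexa 3 among the Hexa libraries. The 7 epidermis and cuticle markers summed to 1647 to 1994 RPKM in the controls, 1445 to 1550 in Quad and 1090 to 1201 in Hexa. Without TwdlX and TwdlY, left out after their values were seen because both were among the largest falls in Quad, the sums were 1080 to 1281, 1180 to 1223 and 810 to 942 RPKM, so Quad overlapped the controls. The 6 neuroblast markers, which include the misexpressed wor and ase, summed to 34.8 to 40.5 RPKM in the controls, 59.7 to 69.6 in Quad and 58.2 to 75.3 in Hexa. Without wor and ase the sums were 29.9 to 35.1, 43.7 to 46.2 and 40.2 to 51.0 RPKM, with both misexpressions above the controls. The part of midgut, epidermal or neuroblast content and of heat shock in these levels was not tested.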

How the data were processed

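Whole-embryo RNA was sequenced on a HiSeq2500 with 150 bp reads, per the labels' protocols; for the aligner, counter, annotation, build and strand setting the answer is not given in the sources used here, and coordinates are therefore omitted. The authors deposited 1 table with a raw read count and a log2 RPKM per gene and library, per the file headers; 9 linear RPKM columns were not used. The log2 floor of -10.86 was set to 0 RPKM. Genes were named from the file and placed with the BDGP 6.54 annotation (Ensembl 115) and RefSeq synonyms, which matched 10068 of 10221 names.

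Since counts of some expressed genes are listed at 0, limma 3.58.1 (R 4.3.3, trend, robust) on log2(RPKM + 0.1) was the main test, with all 9 libraries in 1 fit, group as the only term, a filter of 0.5 RPKM in 3 libraries (6190 genes) and Benjamini-Hochberg adjustment at 0.05. edgeR 4.0.16 and DESeq2 1.42.0 on the deposited counts, other pseudocounts, filters and scaling, a replicate term and leaving out each library were alternatives. The tests were checked on simulated data, where the share of false calls exceeded the nominal level in all 3 tools, most in limma. The members and lists were chosen with earlier results of these data known. Besides members, the text names the 3 genes most correlated with each, the 3 nearest on each side, rad50 and nbs, the genes ranked next to them in Quad, and up to 4 called genes per list and comparison by smallest p; the genes high in control 2 were named after their values were seen. The labels call the replicates biological.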

Additional observations from a re-analysis of the deposited data

Results flagged for a closer look

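The Quad and Hexa effects differed for MFS1 and CREG by a test of the difference itself. The genes were chosen for low levels in these Quad libraries, which favours a rise here, so the test is not independent of the choice. MFS1 was higher in Hexa than in Quad by log2 0.95 (limma adjusted p = 0.00398 over 6190 genes), and CREG by log2 1.20 (limma adjusted p = 0.00206). In both genes the Hexa libraries lay wholly above those of Quad, as for 28.6% of tested genes.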

How the results depend on the processing

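The calls of mre11 in Hexa against control and of MFS1 and CREG in Hexa against Quad held in every alternative that could be fitted, 19 for mre11 and MFS1 and 16 for CREG, whose counts of 0 gave no count test. Their adjusted p-values ran to at most 0.0135, 0.0222 and 0.0127. Leaving out 1 library each, mre11 in Hexa ranged from log2 -1.17 to -0.88, MFS1 in Hexa against Quad from 0.86 to 1.06 and CREG from 1.07 to 1.33. MFS1 in Hexa against control (log2 -0.40 to -0.21) and mre11 in Hexa against Quad (0.24 to 0.40) were never called. CREG in Hexa against control ranged from -0.054 to 0.21 and was below 0 without Hexa 1 (-0.054) or control 2 (-0.014). MFS1 in Quad was -1.10 with a pseudocount of 1. Numbers of called genes moved more: in Hexa against control from 1997 to 925 with only the 2 groups in the fit, 1033 in edgeR, 949 in edgeR without a filter and 930 to 2172 without 1 library; in Hexa against Quad from 1431 to 686 and 637 in edgeR with and without a filter and 441 to 2017 without 1 library; in Quad against control from 290 to between 129 and 365 without 1 library. Single libraries that moved these numbers by over 1.5 times were control 1, control 3 and each Quad library for Quad against control, control 1, Hexa 1 and Hexa 2 for Hexa against control, and each Quad library, Hexa 1 and Hexa 2 for Hexa against Quad. The cause was not tested. Library numbers do not pair the samples across all groups: deviations of same-numbered libraries correlated between -0.15 and 0.18. Only between control and Quad did each library correlate best with its own number. There same-numbered libraries had 0.098, 0.18 and 0.15, and differently numbered ones -0.20 to 0.048. With the replicate block 226 genes were called in Quad against control, 1373 in Hexa against control and 882 in Hexa against Quad. The calls of the 3 genes in Hexa against control and Hexa against Quad did not change with it. The count column lists CREG at 0, so its result has no check on counts.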
